A study of Mus musculus with 18 samples.

Results

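The 10 genes examined here serve glucose uptake and glycolysis, and were measured in single mouse embryos at the 2-cell stage. They were chosen by name and RefSeq identifier, with no measured value in the rule but with earlier results of these data known. The 10 are rows among the 26823 RefSeq transcripts counted in each embryo. They were the glucose transporters Slc2a1 (NM_011400) and Slc2a3 (NM_011401), the hexokinases Hk1 (NM_010438) and Hk2 (NM_013820), and the isomerase Gpi1 (NM_008155). The enzymes of lower glycolysis were Gapdh (NM_008084), Pgk1 (NM_008828) and Pkm (NM_011099), and the lactate dehydrogenases were Ldha (NM_010699) and Ldhb (NM_008492). All 10 rows were present in all 18 embryos' tables.

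The study asked whether a disturbed histone content of sperm goes along with altered gene expression in the embryos those sperm produce. RNA was sequenced from 9 embryos sired by wild-type males and 9 sired by Parg(110)-/- males. Either group comprised 3 fathers, who contributed 3 embryos apiece. Parg encodes the glycohydrolase that degrades poly(ADP-ribose), and the deletion removes one isoform of it in the fathers. All mothers were wild-type, the strain background of every sample was 129SVE, and the males mated naturally. Every embryo in the second group thus carried a deleted allele, inherited from its father, and the study calls these embryos Parg(110)-/+. The embryo's own genotype and its father's sperm changed together, so their parts cannot be told apart. Embryos are named by father and embryo number, with fathers 1, 2 and 3 wild-type and fathers 6, 7 and 8 Parg(110)-/-, and the offspring of the latter are called Parg(110) embryos. The p-values over embryos treat embryos of one father as independent. The Parg row (NM_011960) averaged 74.7 ± 32.1 CPM (counts per 1000000 counts of the embryo, SD, n = 9) in wild-type and 46.4 ± 18.3 CPM (n = 9) in Parg(110) embryos. That difference did not pass edgeR's quasi-likelihood test (adjusted p = 0.872), and with a normal maternal allele in each embryo it is no check of the fathers' genotype.

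Totals lay between 2852858 and 13355161 counts per embryo. A single count was worth 0.0749 to 0.351 CPM, and a value of 0 allows up to 3 counts, or 0.225 to 1.05 CPM, for counting error only. The RNA of each embryo was amplified before the library was made, so counts are not independent molecules. CPM is a share of one whole embryo's counts. Less of a transcript in both cells, its loss from one of them and more of all other RNA cannot be told apart. Of 15 oocyte and early embryo markers, 12 were found in all 18 embryos. Zscan4c was counted in 14 embryos, and Zscan4d and Zfp352 in 16 each. Markers of cumulus cells, which surround the ovulated egg, were at 0 in all embryos for 6 of 12 genes (Amh, Fshr, Foxl2, Inha, Ptx3 and Tnfaip6). Of the others, Cyp19a1 was counted in 10 embryos at up to 9.82 CPM, Kitl in 10, Inhba in 6, and Has2 and Lhcgr in 1 each. Nr5a2, which the embryo also expresses, was counted in all 18 and averaged 355.4 CPM. Without Nr5a2 the cumulus markers summed to 0 to 7.13 CPM in wild-type and 0 to 10.3 CPM in Parg(110) embryos. The sperm genes Prm1, Tnp1, Tnp2 and Odf1 were at 0 in all embryos. The other 6 sperm or spermatid markers had counts in some embryos, with Ldhc in 11 embryos at up to 17.7 CPM. All 10 summed to 0.527 to 20.04 CPM in wild-type and 0 to 15.0 CPM in Parg(110) embryos. Blood markers summed to 0 to 2.48 CPM and 0 to 14.2 CPM.

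Glycolysis splits glucose into pyruvate. Glucose enters through a transporter of the Slc2a family, a hexokinase phosphorylates it and thereby traps it, and a chain of enzymes converts it until pyruvate kinase releases pyruvate, which lactate dehydrogenase interconverts with lactate. The early cleavage embryo of the mouse is known for living on pyruvate and lactate taken from its surroundings, while use of glucose rises later, before implantation. Lactate dehydrogenase is built from A and B subunits, and the B form is the known one of mouse eggs. Gapdh and Pgk1 are also widely used as reference genes to which other transcripts are scaled.

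Several of these genes come in pairs of isozymes whose coding sequences are alike, and the files count only reads with a single place in the genome. The coding sequences of Ldha and Ldhb were 71.7% identical, those of Hk1 and Hk2 71.1%, and those of Slc2a1 and Slc2a3 68.8%. The most alike stretch of 60 coding bases was sought within single exons of both partners (mm9, coding strand, 5′ to 3′, from the reference genome). In it the partners differed at the positions in capitals, 7 for the dehydrogenases, 6 for the hexokinases and 8 for the transporters. These stretches are shown because they say how close the partners are at their closest within an exon. A read can be given to one of the partners only through such differences.
Ldha, chr7:54105607-54105666, plus strand: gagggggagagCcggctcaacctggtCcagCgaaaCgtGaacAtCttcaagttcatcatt
Ldhb, chr6:142447080-142447139, minus strand: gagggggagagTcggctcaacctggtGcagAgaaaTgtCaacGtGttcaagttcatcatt
Hk1, chr10:61755154-61755213, minus strand: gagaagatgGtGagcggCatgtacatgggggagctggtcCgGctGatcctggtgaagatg
Hk2, chr6:82689605-82689664, minus strand: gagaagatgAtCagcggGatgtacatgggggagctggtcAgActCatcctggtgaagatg
Slc2a1, chr4:118808421-118808480, plus strand: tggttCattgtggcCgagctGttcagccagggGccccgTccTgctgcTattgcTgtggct
Slc2a3, chr6:122681468-122681527, minus strand: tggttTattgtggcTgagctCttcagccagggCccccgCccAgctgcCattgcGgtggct

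A second kind of copy lies outside the genes. Each transcript model (GENCODE M1 on mm9) was tiled with 50-base windows every 10 bases, and a window was called repeated where the genome outside the gene held it again with at most 1 mismatch. Gapdh had 87.7% of its windows repeated, and 1 window had as many as 126 other matches. Pgk1 had 92.7% repeated, Gpi1 70.9%, Ldha 67.5%, Pkm 64.7% and Ldhb 61.1%. Hk1 had 1.57% repeated, and Hk2, Slc2a1 and Slc2a3 had none. The following coding windows of Gapdh, Pkm and Ldhb are all lower case, since no position stands out. Each had the most other matches among the coding windows of its gene that lay in 1 exon. Windows that also matched a certain chromosome were left out of this choice, so coding windows with more matches may exist. The windows shown say how often such sequence recurs, while the length of the reads is not known here. The Gapdh window recurred at 81 other places, the Pkm window at 5 and the Ldhb window at 1.
Gapdh, chr6:125113338-125113387, minus strand: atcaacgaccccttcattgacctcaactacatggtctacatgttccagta
Pkm, chr9:59516825-59516874, plus strand: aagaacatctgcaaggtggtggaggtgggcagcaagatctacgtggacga
Ldhb, chr6:142453962-142454011, minus strand: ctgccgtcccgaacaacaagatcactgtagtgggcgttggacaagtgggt

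Ldhb and Pkm made up most of the signal, with 82.5% of the summed CPM of all 10 over the 18 embryos, and they were the only ones of the 10 counted in every embryo. The other 8 were lower, and each was missing from some embryos, while 45.0% of all transcripts tested were counted in all 18. The mean of Slc2a1 was at or above that of 51.7% of the transcripts tested, and the mean of Gpi1 at or above that of 47.6%. Over all 10 genes, 16 of 90 values were at 0 in wild-type and 24 of 90 in Parg(110) embryos. The 10 summed to 200.4 ± 38.5 CPM (n = 9) in wild-type and 212.8 ± 88.0 CPM (n = 9) in Parg(110) embryos. The groups overlapped for all 10 genes. The share of all transcripts with overlapping groups was not counted, so the overlap marks nothing particular to these genes. No gene passed the test between the groups, where 0% of the 15333 transcripts tested passed at an adjusted p below 0.1.

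**Figure D1:**
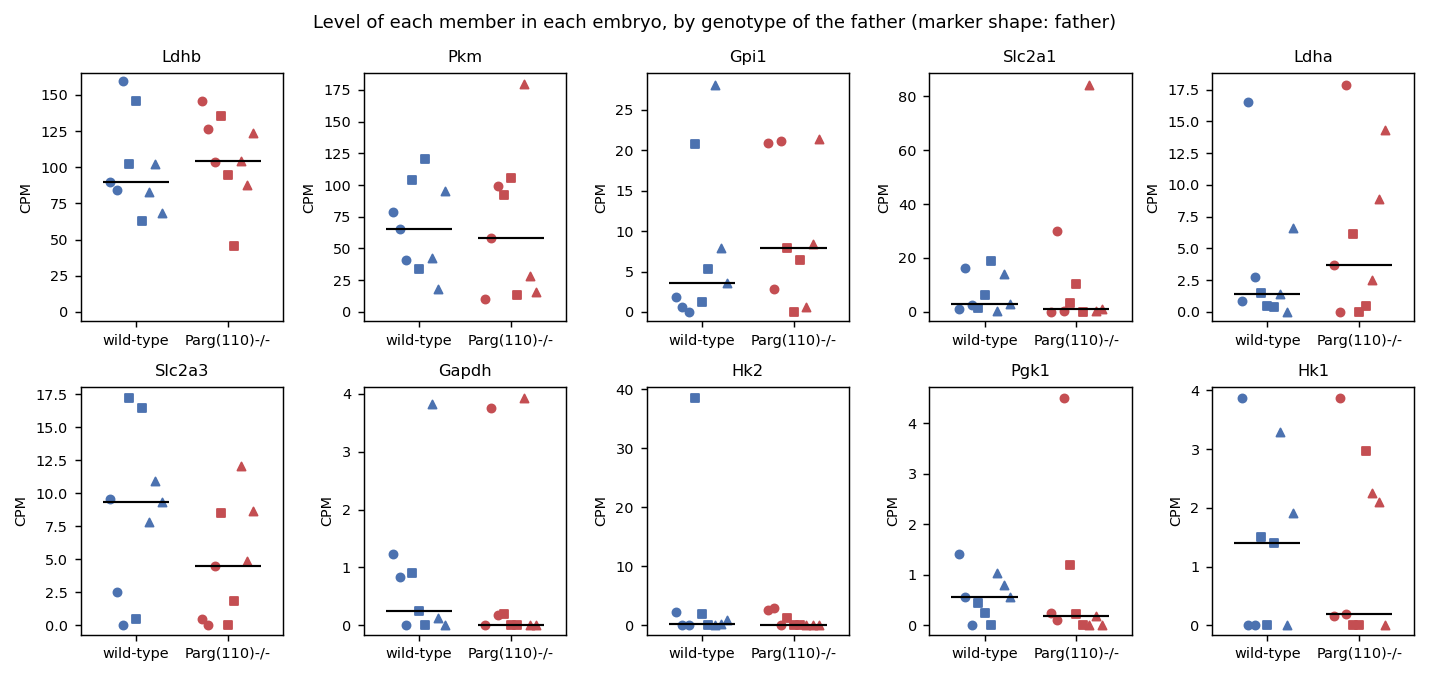
Each panel plots the CPM of one gene (vertical axis, linear, with its own range) in 9 wild-type and 9 Parg(110) embryos, with a bar at the group median and 1 marker shape for each father of a group (circles for fathers 1 and 6, squares for 2 and 7, triangles for 3 and 8). The 2 groups overlap in every panel, and single embryos stand far above the rest for Hk2 (38.6 CPM, wild-type) and Slc2a1 (84.3 CPM, Parg(110)).

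Slc2a1, the transporter found in most cell types, lies at chr4:118781316-118809935 with 10 exons. In wild-type embryos it ranged from 0.347 to 18.9 CPM with a median of 3.04 CPM, and it was counted in all 9. In Parg(110) embryos it ranged from 0 to 84.3 CPM with a median of 1.11 CPM, and it was at 0 in 2. Of the Parg(110) embryos, 2 lay above every wild-type embryo. A further 3 lay below every one, but with 0, 0 and 1 counts against 2 counts in the lowest wild-type embryo, 3-1. That difference lies within the limit of 3 counts, so the lower end was not resolved. Embryo 8-1 held the highest value, from 300 counts, and the next highest Parg(110) embryo, 6-2, had 29.99 CPM. The fitted log2 difference was 0.96 ± 1.15 (edgeR, SE, adjusted p = 0.971). It turned to -0.31 when embryo 8-1 was left out, and with the highest embryo of each group left out the means of 7.13 and 14.4 CPM became 5.65 and 5.63 CPM (wild-type and Parg(110), n = 8 each).

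Slc2a3, the high-affinity transporter, lies at chr6:122677827-122751658 with 10 exons. It ranged from 0 to 17.2 CPM in wild-type embryos, with a median of 9.34 CPM, and from 0 to 12.1 CPM in Parg(110) embryos, with a median of 4.50 CPM. The Parg(110) values lay within the wild-type range. The means were 8.26 ± 6.32 and 4.54 ± 4.39 CPM, and the log2 difference of -0.86 ± 1.06 did not pass (edgeR, adjusted p = 0.971). It stayed negative, between -1.68 and -0.46, when each father was left out in turn.

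The chosen rows of the hexokinases were near the limit of counting in most embryos. Hk1, the widely expressed form, lies at chr10:61731603-61842656 with 22 exons, and reached 3.87 CPM in both groups. Its median was 1.402 CPM in wild-type embryos, 4 of which were at 0, and 0.184 CPM in Parg(110) embryos, 3 of which were at 0. The means were 1.33 ± 1.49 and 1.28 ± 1.52 CPM. The fitted log2 difference was -0.07 ± 1.43 (edgeR, adjusted p = 1.00). Hk1 also has a second row among the transcripts, NM_001146100, which held other counts and was not used. The values here are thus those of the chosen row, and the level of Hk1 as a whole is not given.

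Hk2, the form of insulin-responsive tissues, lies at chr6:82675019-82724448 with 18 exons. It was at 0 in 4 wild-type and in 6 Parg(110) embryos. Embryo 2-1 alone gave 515 counts, or 38.6 CPM, while the next highest wild-type embryo had 2.20 CPM and the highest Parg(110) embryo 2.93 CPM. That 1 embryo carried 76.6% of the CPM summed over 18 embryos. The means were 4.85 ± 12.7 and 0.742 ± 1.203 CPM, and 0.634 ± 0.914 CPM for the other 8 wild-type embryos. The log2 difference of -2.63 ± 1.66 (edgeR, adjusted p = 0.918) became 0.21 without embryo 2-1.

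Gpi1, which turns the phosphate of glucose into that of fructose, lies at chr7:34987141-35015308 with 18 exons. It ranged from 0 to 28.1 CPM in wild-type embryos, with a median of 3.60 CPM, and from 0 to 21.4 CPM in Parg(110) embryos, with a median of 7.92 CPM. High values occurred in both groups, and 1 embryo of either group was at 0. The log2 difference was 0.41 ± 1.00 (edgeR, adjusted p = 0.996), and it was -0.11 without father 1.

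Gapdh, the glyceraldehyde 3-phosphate dehydrogenase, lies at chr6:125111871-125116485 with 7 exons. It was at 0 in 8 of 18 embryos, 3 wild-type and 5 Parg(110), and its mean was at or above that of only 5.97% of all transcripts tested. The wild-type embryos ranged from 0 to 3.82 CPM (median 0.246 CPM) and the Parg(110) embryos from 0 to 3.93 CPM (median 0 CPM). No embryo had more than 36 counts. The log2 difference was 0.13 ± 1.48 (edgeR, adjusted p = 1.00), and -0.57 without embryo 8-1. Of its windows 87.7% were repeated, and the part this had in its low level was not tested.

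Pgk1, the phosphoglycerate kinase of somatic cells, lies at chrX:103382439-103399038 with 11 exons. It reached 10 counts in 2 embryos and did not enter the test, which asked for 10 counts in at least 3. It ranged from 0 to 1.41 CPM in wild-type embryos (median 0.559 CPM) and from 0 to 4.50 CPM in Parg(110) embryos (median 0.174 CPM). The highest value, 49 counts in embryo 6-3, lay above all wild-type embryos, and the means were 0.562 ± 0.467 CPM in wild-type and 0.713 ± 1.47 CPM in Parg(110) embryos (n = 9 each). With the highest embryo of each group left out they were 0.456 ± 0.366 and 0.240 ± 0.396 CPM (n = 8 each). Of its windows 92.7% were repeated, the highest share among the 10.

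Pkm, the pyruvate kinase that makes pyruvate from phosphoenolpyruvate, lies at chr9:59504383-59527182 with 11 exons. It was counted in every embryo, from 18.2 to 120.6 CPM in wild-type (median 65.3 CPM) and from 10.2 to 179.7 CPM in Parg(110) embryos (median 58.5 CPM). The means were nearly equal, 66.6 ± 35.3 and 66.9 ± 57.3 CPM, while the Parg(110) embryos fell both above and below the wild-type range, with 1 above and 3 below. The log2 difference was -0.0032 ± 0.50 (edgeR, adjusted p = 1.00).

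Ldhb, which encodes the B subunit of lactate dehydrogenase, lies at chr6:142438769-142456477 with 8 exons and was the highest of the 10. It ranged from 63.1 to 159.3 CPM in wild-type embryos (median 89.95 CPM) and from 45.8 to 145.5 CPM in Parg(110) embryos (median 104.2 CPM). The means were 99.8 ± 32.8 and 107.4 ± 30.1 CPM. Its coefficient of variation over 18 embryos was 29.7%, and only 2.69% of the transcripts tested varied less, against a median of 108% over all of them. Its mean was at or above that of 88.2% of the transcripts tested, and its variation was not compared with transcripts of like level. The log2 difference of 0.11 ± 0.27 (edgeR, adjusted p = 0.997) had the smallest standard error of the 9 genes tested.

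Ldha, which encodes the A subunit, lies at chr7:54096845-54110997 with 8 exons. It ranged from 0 to 16.5 CPM in wild-type embryos (median 1.39 CPM) and from 0 to 17.9 CPM in Parg(110) embryos (median 3.68 CPM). The top wild-type embryo, 1-2, stood at 16.5 CPM and the next at 6.64 CPM. The log2 difference was 0.84 ± 1.17 (edgeR, adjusted p = 0.976), with 0.36 when father 2 and 1.82 when father 1 was left out. A second Ldha row, NM_001136069, held the same counts in every embryo.

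Placed per kilobase of transcript, where genes can be compared, the level fell from 79.5 ± 23.6 CPM per kb (SD, n = 18) for Ldhb to 30.04 ± 20.8 for Pkm, and then to 4.33 ± 4.54 for Gpi1. Ldhb lay above Pkm in 16 of 18 embryos, and Pkm above Gpi1 in 16 of 18. Below that the order was loose. Slc2a1 followed at 4.12 ± 7.74 CPM per kb and Ldha at 2.95 ± 3.73, and Slc2a3 at 1.62 ± 1.42. Gpi1 exceeded Slc2a1 in 10 of 18 embryos, Slc2a1 exceeded Ldha in 6, and Ldha exceeded Slc2a3 in 9, so these neighbours did not differ beyond their spread. Slc2a3 lay above Gapdh in 13 embryos, with 2 ties. Gapdh at 0.596 ± 1.00, Hk2 at 0.507 ± 1.63, Pgk1 at 0.349 ± 0.580 and Hk1 at 0.339 ± 0.379 CPM per kb did not differ beyond their spread. On this scale the mean of Ldhb exceeded that of Gapdh 133-fold and that of Hk1 235-fold.

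**Figure D2:**
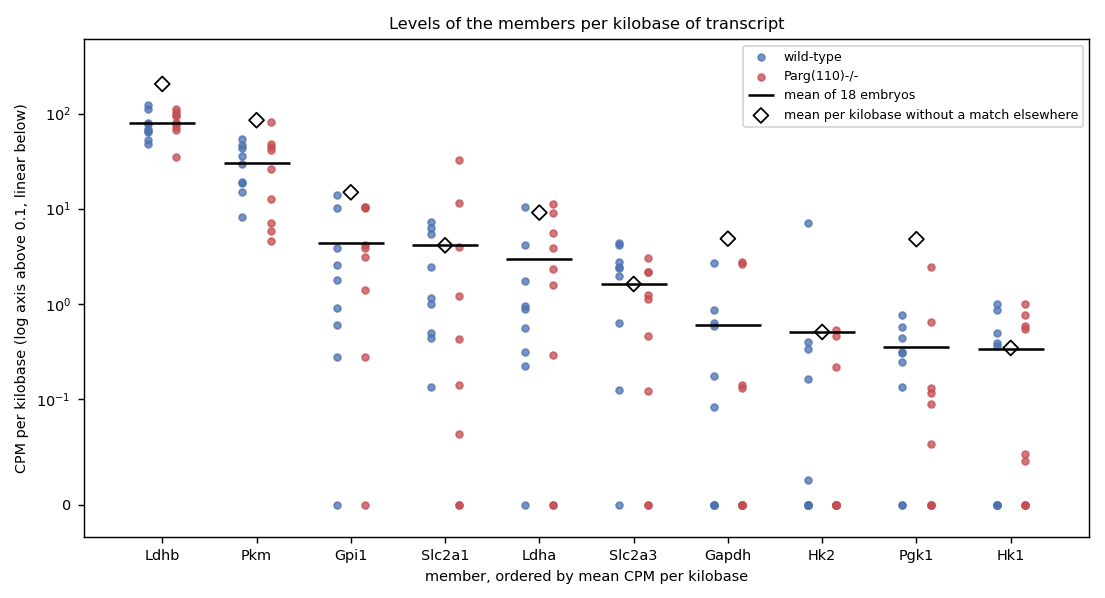
CPM per kilobase of transcript (vertical axis, logarithmic above 0.1 and linear below) of the 10 genes in 18 embryos, wild-type and Parg(110) points side by side, with a bar at the mean and a diamond at the mean per kilobase of transcript not repeated elsewhere. Ldhb and Pkm stand apart from the other 8 on either scale, while the diamonds of Gapdh and Pgk1 lie well above their bars.

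Scaled by the length that was not repeated, an alternative added after the data were seen, Ldhb (204 CPM per kb) and Pkm (85.0) stayed at the top, followed by Gpi1 (14.9). Ldha rose to the fourth place with 9.09 CPM per kb, ahead of Gapdh with 4.84, Pgk1 with 4.78 and Slc2a1 with 4.12. Hk2 stood at 0.507 and Hk1 at 0.344 CPM per kb, and the mean of Ldhb exceeded that of Gapdh 42.2-fold and that of Hk1 593-fold. Of the 10 genes, 6 changed rank, and 8 did when the length was left out.

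The share of repeated windows was set beside the level of 38 of the 39 glycolytic genes that the files could be matched to, of 41 listed, since 1 had no transcript model. In 8 of the 38, less than 50% of the windows had no match elsewhere, and these were 6 of the 10 genes together with Pgam1 and Eno1, named after their values were seen. Pgam1 averaged 0.881 CPM and Eno1 0.354 CPM, near Gapdh and Pgk1. Ldhb and Pkm were counted in every embryo, with 61.1% and 64.7% of their windows repeated. Hk1 and Hk2, with 1.57% and none repeated, were as low as Gapdh and Pgk1 per kb of the full transcript, but lower per kb not repeated. The number of other matches also differed, with up to 126 for a window of Gapdh and at most 1 for a window of Ldhb. The part that repeats had in any of these levels was not tested.

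**Figure D3:**
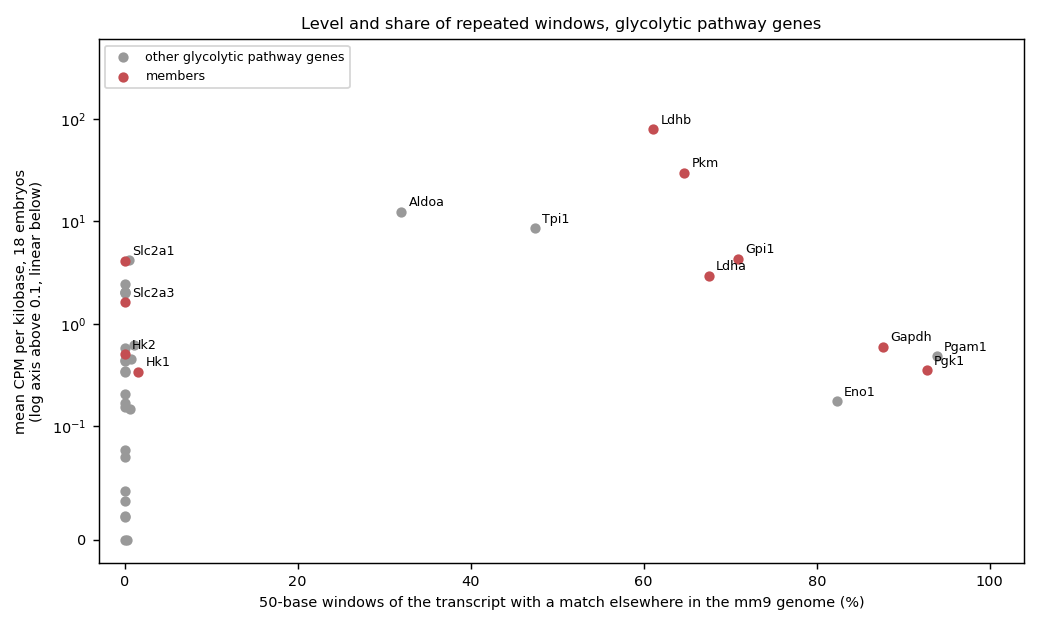
Mean CPM per kilobase over 18 embryos (vertical axis, logarithmic above 0.1 and linear below) against the percentage of 50-base windows with a match elsewhere in mm9, for the genes of the glycolytic pathway list with a transcript model, the 10 chosen genes in red. Gapdh and Pgk1 lie at the right with low levels beside Pgam1 and Eno1. Ldhb and Pkm are the highest, with more than 60% of their windows repeated.

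The shares of isozymes within an embryo do not depend on its total. Ldhb took 96.5 ± 5.50% of the counts of Ldha and Ldhb in wild-type embryos and 95.1 ± 5.26% in Parg(110) embryos (SD, n = 9 each), and it was above 80% in all 18. The lowest share was 83.7% in wild-type and 85.2% in Parg(110) embryos. The groups overlapped, and in no embryo did most counts of the pair come from Ldha.

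The other pairs showed no such constancy. Slc2a1 took from 4.26% to all of the counts of both transporters in 9 wild-type embryos (mean 48.4 ± 38.5%), and from 3.45% to all of them in the 7 Parg(110) embryos with at least 10 counts of the pair (mean 48.1 ± 45.4%). In 3 wild-type and 3 Parg(110) embryos its share was below 20%, and in as many it was above 80%. In most of these embryos the counts of the pair thus came mainly from a single transporter, but not always the same. Some shares rest on few counts, such as 18 of Slc2a1 and 0 of Slc2a3 in embryo 1-3. The part that loss of transcripts in amplification had in these shares was not tested. The chosen rows of the hexokinases gave at least 10 counts in 5 wild-type and 4 Parg(110) embryos, with Hk1 shares of 47.1 ± 43.6% and 65.7 ± 44.8%. In embryo 2-1, with 535 counts of the pair, Hk1 had 3.74%. Embryo 2-2 had no Hk1 among 15 counts, which allows a share of up to 20%.

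**Figure D4:**
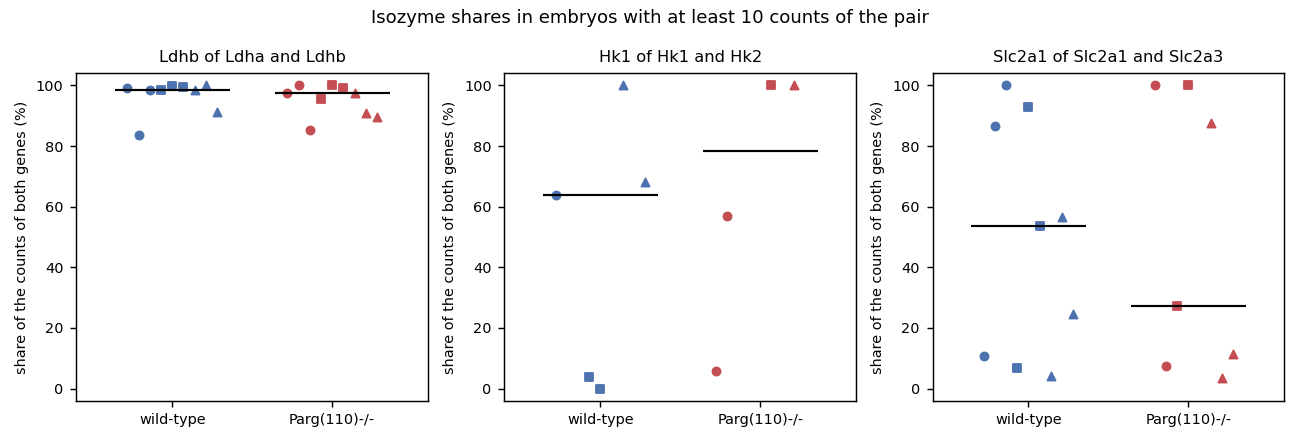
Share of one isozyme in the counts of its pair (vertical axis, percent) in each embryo with at least 10 counts of the pair, by genotype of the father, with a bar at the group median and the same marker shapes for fathers as in the plot of CPM by embryo. Ldhb lies above 80% in all 18 embryos, while Hk1 and Slc2a1 shares reach from under 10% to 100%.

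The genes did not rise and fall together. Over the 45 pairs of the 10 genes, the median Pearson correlation of log2(CPM + 1) across 18 embryos was 0.10, the lowest was -0.61 for Gpi1 and Slc2a1, and the highest 0.58 for Gapdh and Hk1. All values of a pair share their libraries and totals, and many rest on counts near 0, so these are descriptions. Outside the list, the transcripts most like Ldhb by TMM-normalized log2(CPM + 1) were Tm2d3 (r = 0.835), Mael (0.821) and Nlrp9b (0.820), over 18 embryos. Those most like Pkm were NR_033208 (0.847), for which no symbol was matched, Pym1 (0.847) and Kif17 (0.815). NR_033208 and Pym1 held equal counts in 14 of 18 embryos. Those most like Slc2a1 were Fzr1 (0.795), Cadm4 (0.771) and Atp2a1 (0.770).

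Between the 9 Parg(110) and the 9 wild-type embryos, edgeR passed none of the 9 genes tested, and none had an unadjusted p below 0.05. DESeq2 and limma with the father as a random effect also passed 0 of the 9. Over all 15333 transcripts edgeR passed 0, with 889 at an unadjusted p below 0.05, whereas DESeq2 passed 20 and limma 0. The log2 differences ran from -2.63 for Hk2 to 0.96 for Slc2a1, with 5 above and 4 below 0. Their median was 0.11, against -0.02 over all transcripts, and the median standard error was 1.15 against 0.92. The smallest unadjusted p of the 9 was 0.125, for Hk2. The standard errors were smallest for Ldhb (0.27) and Pkm (0.50), and lay between 1.00 and 1.66 for the other 7.

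**Figure D5:**
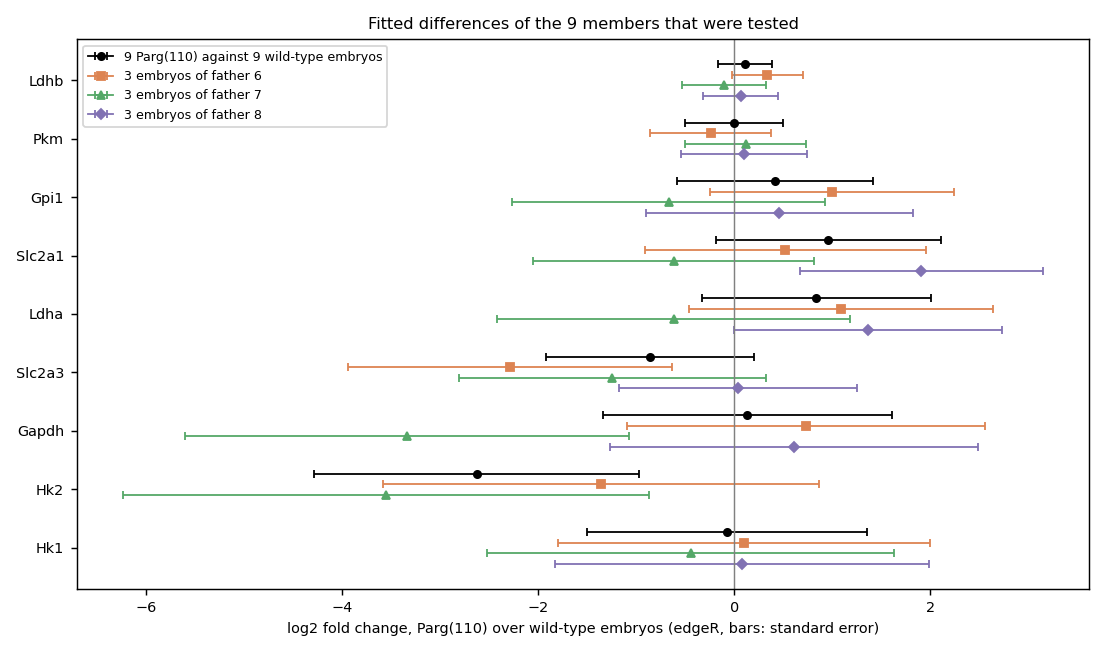
Fitted log2 fold change (horizontal axis, Parg(110) over wild-type embryos, edgeR, bars are standard errors) of the 9 genes tested, for all 9 Parg(110) embryos and for the 3 embryos of each father, all against the same 9 wild-type embryos. Ldhb has the shortest bars, from -0.10 to 0.34 in the fits by father, and no value passed the test. Hk2 is not drawn for father 8, whose 3 embryos were at 0.

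The 3 embryos of each Parg(110)-/- father were compared with the same 9 wild-type embryos, so the comparisons share their controls. None of the 9 genes passed for father 6, where 0.00696% of 14377 transcripts passed, for father 7, with 0% of 14039, or for father 8, with 0% of 13936. DESeq2 passed none of them either. The log2 differences of Ldhb were 0.34 ± 0.36, -0.10 ± 0.43 and 0.06 ± 0.38 for fathers 6, 7 and 8, and those of Pkm -0.24 ± 0.62, 0.12 ± 0.61 and 0.10 ± 0.65. For Slc2a1 they were 0.52 ± 1.43, -0.62 ± 1.43 and 1.91 ± 1.24, the last with embryo 8-1 among its 3. Of 27 values, 1 (3.70%) had an unadjusted p below 0.05, as had 7.18, 8.78 and 8.94% of all transcripts for fathers 6, 7 and 8. Hk2 was at 0 in all 3 embryos of father 8, at least 43.0-fold below the pooled wild-type level of 7.83 CPM when 3 counts over the 3 embryos are taken as the limit (edgeR, adjusted p = 0.556). That level rests on embryo 2-1, and without it the wild-type level was 0.835 CPM and the bound 4.59-fold.

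Mean levels by father differed within both groups. Wild-type fathers averaged 0.803 (father 1), 9.08 (father 2) and 13.2 CPM (father 3) for Gpi1, and the Parg(110)-/- fathers 15.0 (father 6), 4.77 (father 7) and 10.1 CPM (father 8), each with an SD of 0.948 to 13.1 CPM over 3 embryos. For Slc2a3 the means of fathers 1, 2 and 3 were 4.04, 11.4 and 9.36 CPM, and those of fathers 6, 7 and 8 were 1.66, 3.45 and 8.53 CPM. The wild-type and Parg(110)-/- fathers overlapped for both genes.

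Each Parg(110) embryo was also compared on its own with the 9 wild-type embryos, as the study did, with the spread taken from the wild-type embryos alone. All 10 genes could be tested, and edgeR passed 0 of the 90 values. Over all transcripts, 0.0270% passed in embryo 6-1, 0.0108% in 6-2, 0.0162% in 6-3, 0.157% in 7-1, 0.157% in 7-2, 0.103% in 7-3, 0% in 8-1, 0.0545% in 8-2 and 0% in 8-3. Of the 90 values, 8 (8.89%) had an unadjusted p below 0.05, against 3.96 to 8.47% of all transcripts in the 9 fits. DESeq2 passed 6 of the 90 (6.67%), in 4 embryos where it passed 3.66 to 10.2% of all transcripts.

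Of those 8 values, 5 were genes at 0 in 1 embryo. Slc2a1 in embryo 6-1 was at least 23.5-fold, and in embryo 7-3 at least 8.27-fold, below the pooled wild-type level of 5.65 CPM, with 3 counts in that embryo as the limit. Slc2a3 was at least 27.4-fold lower in embryo 6-2 and 26.8-fold lower in embryo 7-2 than the wild-type 8.59 CPM, and Gpi1 was at least 25.2-fold lower in embryo 7-2 than 8.07 CPM. Without embryo 2-1 the wild-type level of Gpi1 was 5.18 CPM and the bound 16.2-fold. Wild-type embryos at 0 also occurred for Slc2a3 and for Gpi1. For Slc2a1 the lowest wild-type embryo, 3-1, had 2 counts, or 0.347 CPM. That lies below the limit of 0.683 CPM in embryo 7-3, which was thus not resolved from the wild-type range. All these bounds allow for counting error only. The other 3 were Pkm in embryo 6-1 (10.2 CPM, log2 difference -2.67 ± 1.09) and in embryo 7-3 (13.0 CPM, -2.38 ± 1.07), both below the lowest wild-type embryo, and Slc2a1 in embryo 8-1 (84.3 CPM, 3.47 ± 1.27). Their adjusted p-values in edgeR were 0.647, 0.692 and 0.730. The 6 that DESeq2 passed were the 5 at 0 and Pkm in embryo 6-1, with adjusted p-values of 0.0282 to 0.0935.

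Embryos differed in how many of the 10 genes they showed at all. Wild-type embryos had between 0 and 6 of the 10 at 0 (1.78 ± 1.86, n = 9), and Parg(110) embryos between 1 and 6 (2.67 ± 1.66, n = 9). Embryo 1-3, a wild-type one, and embryo 7-2 each had 6 at 0, and embryos 1-1 and 2-1 had none. Genes at 0 occurred in both groups. Over all transcripts, wild-type embryos had counts for 14071 ± 1218 (11823 to 16436) and Parg(110) embryos for 12854 ± 693 (12064 to 14047), and the part this had in the number of the 10 at 0 was not tested.

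The wider list of the pathway held 41 genes, of which 39 were matched, 36 had counts and 23 were tested. None passed (edgeR), none had an unadjusted p below 0.05, and the log2 differences were positive for 10 and negative for 13, with a median of -0.02, like that of all transcripts. Among the 31 genes that were not among the 10, Aldoa, the aldolase that splits fructose bisphosphate, was the highest of upper glycolysis, at 25.9 ± 24.5 CPM in wild-type and 11.8 ± 10.03 CPM in Parg(110) embryos (log2 difference -1.15 ± 0.67, adjusted p = 0.908). It had the smallest p among the lower ones, together with the sperm isozyme Gapdhs, at 0.832 ± 1.08 and 0.160 ± 0.480 CPM (-2.15 ± 1.52, adjusted p = 0.937). Pfkp, a phosphofructokinase, was at 7.67 ± 7.56 and 12.6 ± 15.2 CPM (0.71 ± 1.09). The highest other transporter was Slc2a8 with 0.575 CPM per kb, the highest other enzyme of lower glycolysis Eno2 with 0.613, and the highest germ cell isozyme Ldhc with 2.04. Eno2 was counted in 3 embryos and Ldhc in 11.

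In neighbouring pathways, of 43 genes listed, 33 were tested and 0 passed (edgeR, 0 at an unadjusted p below 0.05), with 12 higher, 21 lower and a median log2 difference of -0.30, against -0.02 over all transcripts. G6pdx, which opens the pentose phosphate pathway that branches off after the hexokinase step, had 79.3 CPM per kb of the full transcript, next to 79.5 for Ldhb, and 94.9 against 204 per kb not repeated elsewhere. It was found in all 18 embryos (182.6 ± 97.5 and 237.7 ± 151.3 CPM, log2 difference 0.39 ± 0.35). Tigar, an enzyme known to slow glycolysis, stood at 71.1 ± 15.96 and 77.0 ± 23.3 CPM. Pdp2, a phosphatase that switches on pyruvate dehydrogenase, stood at 69.2 ± 31.6 and 68.6 ± 22.6 CPM. All 3 were counted in every embryo, as were Ldhb and Pkm.

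Among carriers and shuttles, Mpc2, a subunit of the mitochondrial pyruvate carrier, had 8.76 CPM per kb and was found in 17 embryos. Mdh2, the mitochondrial malate dehydrogenase, had 23.6 CPM per kb, at 40.3 ± 12.7 CPM in wild-type and 28.4 ± 13.4 CPM in Parg(110) embryos (log2 difference -0.52 ± 0.36, edgeR adjusted p = 0.934). The gluconeogenic Pck2 was the highest of its group with 0.356 CPM per kb. Among the lower genes of the neighbouring pathways, the smallest p-values in edgeR belonged to Gpd2 and Pdhb. Gpd2, the mitochondrial glycerol phosphate dehydrogenase, was at 61.6 ± 43.0 and 27.1 ± 21.5 CPM (-1.17 ± 0.57, edgeR adjusted p = 0.865). Pdhb, a subunit of pyruvate dehydrogenase, was at 35.9 ± 22.03 and 20.8 ± 10.5 CPM (-0.78 ± 0.47, edgeR adjusted p = 0.908). Among the higher genes the smallest p-values belonged to Mdh1 and Fbp2. Mdh1, the cytosolic malate dehydrogenase, was at 1.44 ± 1.72 and 6.23 ± 6.53 CPM (2.11 ± 1.11, edgeR adjusted p = 0.889). Fbp2 was counted in 3 embryos (0.218 ± 0.655 and 3.18 ± 7.81 CPM).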

How the data were processed

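The authors isolated RNA from single 2-cell embryos, amplified it with the WT-Ovation One-Direct kit, sequenced it on an Illumina instrument, mapped reads to mm9 with RUM, excluded reads with more than 1 place in the genome, and deposited, for every RefSeq transcript, its raw count. Read length, counter and annotation are not given in the sources used here. The submitters' processing notes name DESeq 1.10.0 and mm9. Amplification from 1 embryo can lose rare transcripts and widen the spread between embryos.

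CPM is a deposited count divided by the embryo's total, times 1000000. Symbols came from RefSeq (97.4% of 26823 rows matched). Per-kilobase levels, coordinates and sequences came from the mm9 genome and GENCODE M1 models, which need not be the models used for counting. Windows were aligned with blastn 2.17.0. Groups were compared by quasi-likelihood F tests in edgeR 4.0.16 (R 4.3.3) after TMM, over transcripts that reached 10 counts in 3 or more embryos (1 or more for single-embryo fits), with Benjamini-Hochberg adjustment over all transcripts tested and a threshold of 0.1. Its standard errors are the absolute log2 difference over the square root of F. The test was also run on simulated counts with known changes. The share of those changes that it recovered is not reported here, so how large a difference it could miss is not given. Alternatives were DESeq2 1.42.0, limma 3.58.1, other scalings, filters, blocks and left-out fathers or embryos. Over 153 pairs of embryos, counts of 5114 transcripts differed by a chi-square of at least 104 per degree of freedom, so no 2 files were the same library.

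The members and lists were chosen with earlier results of these data known. Named genes were all 10 members, from the other lists the gene of highest level per kilobase in each role and the 2 of smallest p in each direction, and the 3 transcripts most correlated with each of the 3 members of highest mean CPM. A member is represented by its chosen row, and for any other gene with several rows the row of highest mean count stands for it. Of the genes this rule named, 1 is not reported here.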

Additional observations from a re-analysis of the deposited data

Results flagged for a closer look

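In 5 of 20 groups of 9 embryos (10 genes, 2 groups), the highest embryo stood apart from the next by more of the group's whole range than Dixon's 95% limit for 9 values allows. Chance passes that limit in about 1 of 20 groups of normally distributed values, whereas CPM values are skewed with many at 0: of 30591 groups over all transcripts tested, 33.6% passed it, against 25% of these 20. Embryo 2-1 (wild-type) had 38.6 CPM of Hk2, and its gap took 0.943 of the range. Embryo 6-3 (Parg(110)) had 4.50 CPM of Pgk1 (0.736). Embryo 3-1 (wild-type) had 3.82 CPM of Gapdh (0.677), from 22 counts. Embryo 8-1 (Parg(110)) had 84.3 CPM of Slc2a1 (0.644). Embryo 1-2 (wild-type) had 16.5 CPM of Ldha (0.597). The 5 values came from 5 different embryos, 3 of wild-type and 2 of Parg(110)-/- fathers.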

How the results depend on the processing

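The 0 transcripts called between 9 and 9 embryos became 20 with DESeq2, and lay between 0 and 5 with each father left out (5 without father 6). None of the 10 genes was called under any alternative of that comparison. Summed over 3 fathers, 1 call became 802 with DESeq2 and 36 without a filter, and 0 to 1 with a wild-type father left out (0 without father 1 or 3). Summed over 9 single embryos, 97 calls became 8032 with DESeq2, and 41 to 83 with a wild-type father left out (41 without father 3); calls among the 10 genes went from 0 to 6 with DESeq2. Ranks of 8 genes changed with CPM in place of CPM per kb, and of 6 per kb not repeated. Of 153 recomputed log2 differences, 27 changed sign, and none passed the test: Gapdh with counts summed per father (-0.18), limma (-0.70) and without embryo 8-1 (-0.57); Pkm with DESeq2 (0.024), its size factors in edgeR (0.024), file totals (0.0057), no filter (0.0076), a filter on 5 embryos (0.0048), identical rows merged (0.0042), the replicate block (0.012) and without embryo 2-1 (0.098); Hk1 with limma (0.0062) and the replicate block (0.65); Hk2 without embryo 2-1 (0.21); Slc2a1 with limma (-1.23) and without embryo 8-1 (-0.31). With each father left out, values ran from -0.31 to 0.69 (Gapdh), -0.028 to 0.20 (Ldhb), -0.17 to 0.23 (Pkm), -0.23 to 0.15 (Hk1), -4.50 to 0.48 (Hk2) and -0.11 to 1.05 (Gpi1). The causes were not tested. Limma's median over all transcripts was -0.19.

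Embryo numbers showed no pairing of the embryos: deviations of same-numbered embryos of the groups correlated with a median r of 0.0058, against -0.0012 for other numbers. Of 18 embryos, 7 correlated best with their own number, which 3 of the 9 embryos of the other group shared. With the number as a replicate block 0 transcripts were called, as without it, so that count cannot decide on pairing. Leaving out embryo 2-1 or 8-1 and scaling by length not repeated were chosen after seeing the data. The 7 genes tested other than Ldhb and Pkm had standard errors of 1.00 to 1.66. Even the log2 difference of -2.63 of Hk2 had an unadjusted p of 0.125 (edgeR).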
